A study of Mus musculus with 6 samples.

Results

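Triglyceride synthesis and the supply of its glycerol backbone were followed through 10 genes in mouse dorsal skin, namely Gpam, Agpat2, Agpat3, Lpin1, Dgat1, Dgat2, Mogat1, Gpd1, Gk and Pck1. The genes were chosen by name, and each of the 10 had its own row among the 21959 genes of the deposited table. All 10 passed the filter on low counts that left 14875 genes for testing. The skin came from male C57BL/6 mice, shaved on the back in telogen, the resting phase of the hair cycle, at 7 weeks of age. For 7 days a vehicle with 30% dipropylene glycol in water, or 3% rebamipide, a drug introduced for gastric ulcer, was applied to the shaved skin of 3 mice each. Poly-A RNA of full-thickness skin was sequenced with 1 library per mouse, so the groups differ in the drug alone as far as the labels say. The comparison asks how rebamipide changed these genes in the skin.

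Triglyceride is assembled on glycerol 3-phosphate, to which GPAT enzymes attach the first fatty acid and AGPAT enzymes the second. Lipins then remove the phosphate to give diacylglycerol, and DGAT enzymes add the last fatty acid. The backbone comes from glycolysis or, in fat cells, from glyceroneogenesis through the enzyme encoded by Pck1, and Gpd1 completes both routes. Glycerol kinase recycles free glycerol, and it is known as scarce in white and more abundant in brown adipocytes. Fat cells of the dermis and sebaceous glands are the main triglyceride makers of skin.

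The libraries held 38676018 to 39915276 counts in the vehicle group and 32709801 to 34706852 in the rebamipide group. Mitochondrially encoded genes took 2.59% to 5.36% of the counts in vehicle skin and 13.3% to 22.0% in treated skin, so levels are given as CPM, counts scaled to library size, after TMM normalization, which balances the libraries over most genes. A list of 12 adipocyte markers summed to 2467 to 6778 CPM in the vehicle libraries and 13457 to 26830 CPM in the rebamipide libraries, and 8 of the 12 were higher by edgeR, as were 14.1% of all genes tested. A list of 8 brown adipocyte markers summed to 213.7 to 384.3 and 5040 to 12960 CPM, and 6 of the 8 were higher by edgeR. Its defining gene Ucp1 was not counted once in vehicle skin and had 81048, 220449 and 150572 counts in treated skin. Elovl3, which the sebaceous gland list also holds, made up most of the sum in each vehicle library and did not overlap between the groups, at 176.0, 128.6 and 238.4 CPM against 82.3, 83.1 and 33.3 CPM, without passing the test (adjusted p = 0.0575, edgeR). Basal keratinocyte markers summed to 2513 to 4053 CPM in vehicle skin and to 1183, 724.5 and 144.3 CPM in rebamipide libraries 1, 2 and 3, and 0 of the 7 were called by edgeR. Suprabasal keratinocyte markers summed to 986.1, 4819 and 6145 CPM and to 1571, 1053 and 5.61 CPM, with overlap, and 0 of these 7 were called. Krt14, which marks the basal epidermis, had 0 counts in rebamipide library 3, a library labelled as skin, which allows up to 3 counts. The 7 sebaceous gland markers other than Cidea, which brown adipocytes also express, had a mean log2 CPM of 5.43 to 6.36 in vehicle skin and of 4.76, 4.14 and 0.11 in rebamipide libraries 1, 2 and 3, all below the vehicle range. Of these 7 markers, 1 was lower by edgeR. With Cidea the list stood at 5.25 to 6.30 and at 5.49, 5.07 and 1.57. Fast skeletal muscle markers summed to 5159, 21547 and 25724 CPM in vehicle skin and to 32636, 6929 and 266.1 CPM in treated skin, and 0 of the 8 were called by edgeR. Fibroblast markers summed to between 12310 and 18766 CPM and to 15795, 3711 and 1972 CPM, and 0 of the 7 were called. Slow muscle markers summed to 2.07 to 13.5 CPM and to 290.1, 129.3 and 7.02 CPM, and 4 of these 6 genes were higher by edgeR. Endothelial markers had a mean log2 CPM of 4.46 to 5.73 and of 6.80 to 7.35, without overlap, and 4 of the 7 were higher by edgeR. Markers of liver and kidney tubules summed to at most 9.81 CPM in any library. The part of these cell type markers and of the mitochondrial share in the results on the 10 genes was not tested. In bulk tissue, fewer cells of a type and less RNA per cell cannot be told apart.

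Of the 10 genes, 9 were higher in rebamipide-treated skin at an adjusted p-value under 0.05 and 0 were lower (edgeR quasi-likelihood test, adjusted over 14875 genes), where 14.1% of all genes tested were called higher and 6.51% lower. The exception was Mogat1. For each of the 10 genes the groups did not overlap and the treated skin was higher, as was the case for 24.5% of all genes tested. The median log2 fold change of the 10 was 2.71, and that of all genes tested was -0.17. The call of all 9 genes rested on single libraries in edgeR. Without vehicle library 2 or without rebamipide library 2, 0 of the 10 passed by edgeR, although 9 had an unadjusted p-value under 0.05 in each of these fits, which called 0 and 1 genes of the whole table higher. DESeq2, run without the same libraries after this was seen, called 9 of the 10 higher in both cases, and limma-voom called 4. Without rebamipide library 3, which lacks Krt14, 7 of the 10 were called higher by edgeR, 9 by DESeq2 and 6 by limma-voom. Directions were positive for all 10 genes in each of 15 other analyses and in 12 more that were added after seeing the data. The 12 added fits and some of the 15 left out 1 library, which could hardly turn a direction where the groups do not overlap.

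**Figure D1:**
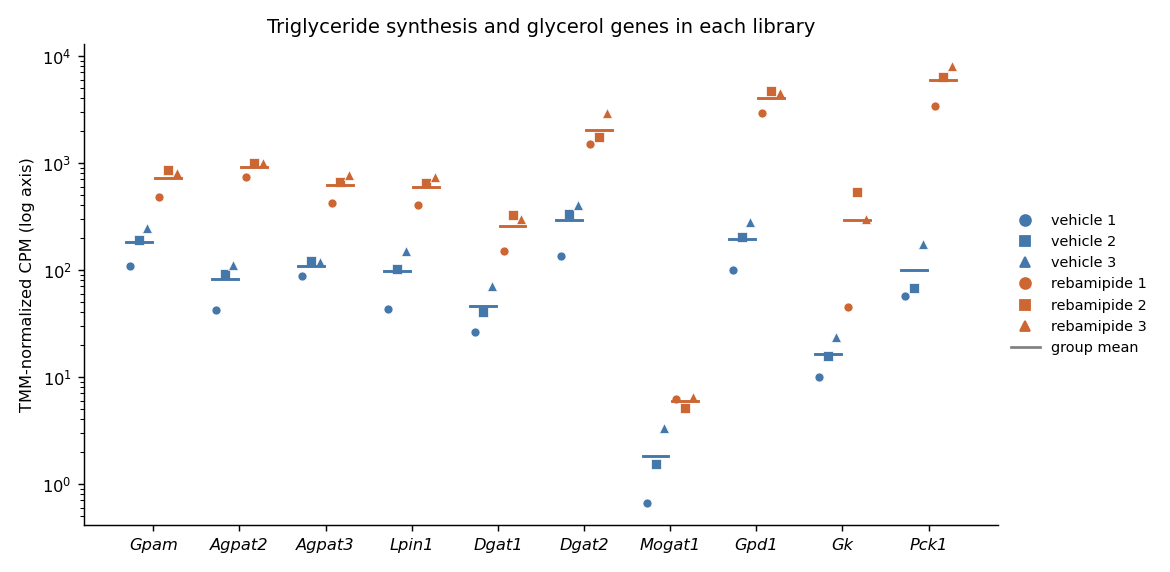
TMM-normalized CPM of the 10 genes on a log axis, with a symbol for each of the 3 vehicle (blue) and 3 rebamipide (orange) libraries and a bar at each group mean. The rebamipide symbols lie above the vehicle symbols for every gene, by the widest gap for Pck1 and by the narrowest for Mogat1, and Gk in rebamipide library 1 lies far below the other 2.

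The genes that supply glycerol 3-phosphate had the largest differences. Pck1 (ENSMUSG00000027513, chromosome 2, 172994841 to 173001066 on the plus strand, build GRCm39) encodes the cytosolic phosphoenolpyruvate carboxykinase, the enzyme that commits carbon to glyceroneogenesis. It was at 56.7, 67.6 and 172.9 CPM in vehicle skin and at 3374, 6379 and 8053 CPM in the rebamipide libraries. The lowest treated value was 19.5 times the highest vehicle value, and vehicle library 3 stood above the other 2. Pck1 had a log2 fold change of 5.90 with a standard error (SE) of 0.71 (adjusted p = 0.00953, edgeR), which placed it at position 23 of 14875 genes by log2 fold change. With 1 library left out, that fold change ran from 5.58 (without vehicle library 1) to 6.57 (without vehicle library 3) in edgeR. Gpd1 (ENSMUSG00000023019, chromosome 15, 99615396 to 99622886, plus strand) encodes the cytosolic glycerol 3-phosphate dehydrogenase, which reduces dihydroxyacetone phosphate to glycerol 3-phosphate. Its values were 100.3, 201.6 and 281.3 CPM in vehicle skin and 2906, 4671 and 4474 CPM in treated skin. The treated libraries lay within 1.61-fold of each other, a narrower spread than the 2.80-fold of the vehicle libraries. The log2 fold change of Gpd1 was 4.37 (SE 0.52, adjusted p = 0.00953, edgeR).

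Gk (ENSMUSG00000025059, chromosome X, 84745543 to 84820425, minus strand) encodes glycerol kinase, which returns free glycerol to the pathway. It was at 10.1, 15.6 and 23.8 CPM in vehicle skin and at 44.7, 538.7 and 296.9 CPM in the rebamipide libraries. Treated libraries 2 and 3 were far above the vehicle range, and treated library 1 was 1.88 times the highest vehicle library. The treated libraries thus spanned 12.05-fold, the widest span of the 10 genes in either group. Gk was higher with a log2 fold change of 4.16 and a SE of 0.93 (adjusted p = 0.0294, edgeR). This call was lost in the fits without vehicle library 1, 2 or 3 or without rebamipide library 2 or 3 (adjusted p = 0.0527 to 0.124, edgeR). The log2 fold change of Gk was 3.38 without rebamipide library 2 and 4.67 without rebamipide library 1, the ends of its range with 1 library left out. Ucp1 stood at 2669, 8591 and 5746 CPM in the same treated libraries, with library 1 lowest and library 2 highest as for Gk. Cidea, another brown adipocyte marker, was at 1552, 2985 and 3543 CPM there.

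**Figure D2:**
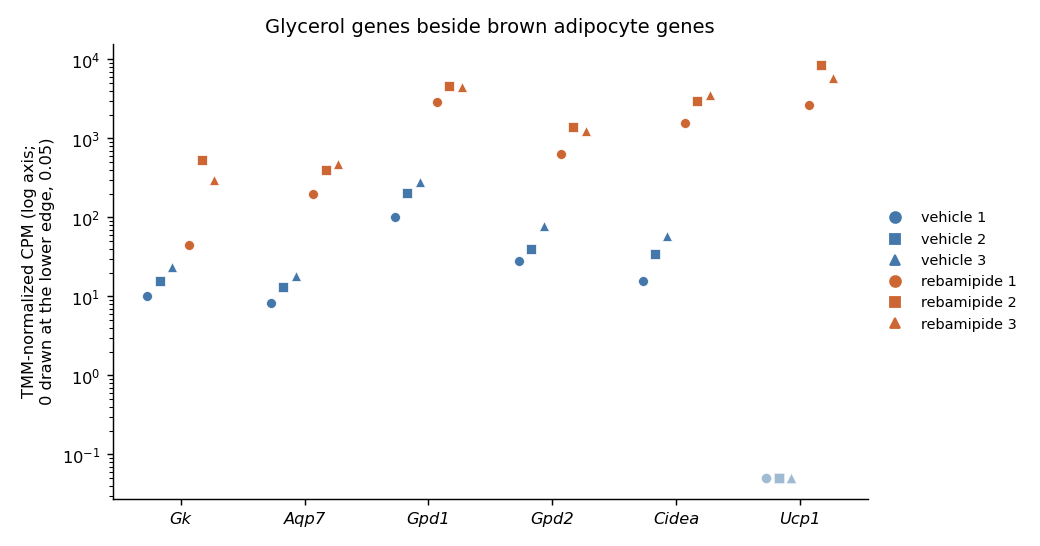
TMM-normalized CPM on a log axis of 4 glycerol genes and of the brown adipocyte markers Cidea and Ucp1 in each of the 6 libraries, with values of 0 drawn at 0.05. Rebamipide library 1 is the lowest treated library for all 6 genes, at 44.7 CPM for Gk and 2669 CPM for Ucp1, and Ucp1 is at 0 in the vehicle libraries.

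Promoter sequences of 7 of the 10 genes were found in the RefSeq-based table of build GRCm38.p6, and Dgat1, Dgat2 and Gpd1 were not among them. The 250 bases before the start are shown for Pck1, which had the largest fold change and whose transcription is known to be driven by cAMP in liver and fat, for the downstream start of Gpam, and for Mogat1, which had the smallest fold change. Capitals mark the cAMP response element core ACGTCA and the AGGTCA site read by nuclear receptors on either strand.
Pck1 (chr2:173152823-173153072, plus strand): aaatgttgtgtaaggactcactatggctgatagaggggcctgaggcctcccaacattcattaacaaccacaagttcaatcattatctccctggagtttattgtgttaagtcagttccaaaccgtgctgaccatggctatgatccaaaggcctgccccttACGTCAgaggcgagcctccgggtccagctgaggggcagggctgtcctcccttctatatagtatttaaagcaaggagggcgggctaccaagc
Gpam (chr19:55099478-55099727, minus strand): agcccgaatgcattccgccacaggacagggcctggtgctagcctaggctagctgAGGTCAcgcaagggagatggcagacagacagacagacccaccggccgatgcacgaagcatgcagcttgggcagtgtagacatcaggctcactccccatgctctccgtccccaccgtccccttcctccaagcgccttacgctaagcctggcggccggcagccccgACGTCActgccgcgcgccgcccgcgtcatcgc
Mogat1 (chr1:78510810-78511059, plus strand): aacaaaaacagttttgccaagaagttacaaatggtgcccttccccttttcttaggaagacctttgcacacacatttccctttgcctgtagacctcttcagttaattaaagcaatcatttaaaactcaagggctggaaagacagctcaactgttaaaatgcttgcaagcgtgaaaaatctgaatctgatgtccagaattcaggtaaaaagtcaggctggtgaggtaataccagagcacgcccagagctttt
ACGTCA began at position -91 from the start of Pck1 and at position -32 of this Gpam window, and it also stood across the start of Gk at position -4 on the opposite strand. AGGTCA began at -196 in the Gpam window and at -74 of Lpin1. Neither was found before the start of Mogat1, Agpat2 or Agpat3, nor before the upstream start of Gpam. Among all 32851 windows of 300 bases in the table, 7.51% held ACGTCA and 16.3% held AGGTCA on either strand. In the 250 bases before the start the shares were 6.47% and 14%. A match describes letters and is not evidence of a bound factor.

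The enzymes that attach the first and the second fatty acid and form diacylglycerol were higher as well, by smaller factors. Gpam (ENSMUSG00000024978, chromosome 19, 55055700 to 55115670, minus strand) encodes the mitochondrial glycerol 3-phosphate acyltransferase that opens the pathway. It was at 107.8, 189.4 and 246.9 CPM in vehicle skin and at 479.3, 860.9 and 802.8 CPM in treated skin. The groups did not overlap, but the lowest treated library was only 1.94 times the highest vehicle library. Its log2 fold change of 1.98 (SE 0.41, adjusted p = 0.0240, edgeR) was the smallest among the 9 that passed, and without rebamipide library 3 it did not pass (adjusted p = 0.0559, edgeR).

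Agpat2 (ENSMUSG00000026922, chromosome 2, 26483069 to 26494429, minus strand) encodes the acylglycerol phosphate acyltransferase whose loss causes congenital lipodystrophy. Its levels were 42.4, 90.4 and 111.9 CPM in the vehicle libraries and 743.8, 990.2 and 987.8 CPM in the rebamipide libraries. The lowest treated library was 6.65 times the highest vehicle library. The log2 fold change was 3.48 (SE 0.43, adjusted p = 0.00993, edgeR). Egfl7 and Gm20532 overlap Agpat2 on the other strand, and each held at most 5921 counts over the 6 libraries against 22588 to 25885 counts of Agpat2 in every treated library. Agpat3 (ENSMUSG00000001211, chromosome 10, 78105012 to 78188323, minus strand), a widely expressed relative that also acts on phospholipids, was at 88.2, 120.1 and 117.0 CPM in vehicle skin and at 423.9, 663.8 and 773.4 CPM in treated skin. Its vehicle libraries were the tightest of the 10 genes, within 1.36-fold of each other. Agpat3 rose by 2.52 on the log2 scale (SE 0.31, adjusted p = 0.00993, edgeR).

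Lpin1 (ENSMUSG00000020593, chromosome 12, 16585670 to 16696967, minus strand) encodes lipin 1, the phosphatidate phosphatase of fat and muscle. It was at 43.2, 102.2 and 150.0 CPM in vehicle skin and at 405.7, 648.8 and 734.9 CPM in the rebamipide libraries. Vehicle library 1 was well below the other 2, and the lowest treated value was 2.71 times the highest vehicle value. In the treated libraries Lpin1 was lowest in library 1 and highest in library 3, the reverse of the order of the fast and slow muscle markers, and in the vehicle libraries it had the same order as the fast muscle markers. The log2 fold change of Lpin1 was 2.60 with a SE of 0.52 (adjusted p = 0.0222, edgeR).

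The final acylation can be made by either of 2 unrelated enzymes. Dgat2 (ENSMUSG00000030747, chromosome 7, 98802865 to 98831926, minus strand), the more abundant transcript in all 6 libraries per length, was at 135.7, 333.9 and 402.8 CPM in vehicle skin and at 1488, 1750 and 2898 CPM in treated skin. The groups were apart, with rebamipide library 3 the highest by a wide margin. Dgat2 rose by 2.81 on the log2 scale (SE 0.52, adjusted p = 0.0186, edgeR). Dgat1 (ENSMUSG00000022555, chromosome 15, 76386215 to 76396153, minus strand), which re-esterifies fatty acids freed by lipolysis, was at 26.2, 40.8 and 69.9 CPM in vehicle skin and at 149.0, 327.4 and 297.9 CPM in the rebamipide libraries. Rebamipide library 1 was the lowest of the treated libraries and still 2.13 times the highest vehicle library. Its log2 fold change was 2.50 (SE 0.48, adjusted p = 0.0202, edgeR).

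Mogat1 (ENSMUSG00000012187, chromosome 1, 78487628 to 78514810, plus strand) encodes a monoacylglycerol acyltransferase, which makes diacylglycerol without glycerol 3-phosphate and belongs to the same family as Dgat2. It was rare throughout, at 33, 75 and 154 counts in the vehicle libraries and 188, 132 and 169 counts in the rebamipide libraries. In CPM these were 0.661, 1.52 and 3.29 against 6.19, 5.14 and 6.45. The treated libraries were close together and the vehicle libraries spanned 4.98-fold, with library 3 near the treated range. The log2 fold change of 1.70 did not pass (SE 0.60, adjusted p = 0.0892, edgeR). It passed with DESeq2 (adjusted p = 0.0285) and without vehicle library 3 in edgeR (log2 fold change 2.44, adjusted p = 0.0400), and its adjusted p-values over the 15 other analyses ran from 0.0285 to 0.255. BC035947 overlaps Mogat1 on the other strand with 107 counts over the 6 libraries.

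The vehicle libraries were not interchangeable for these genes. Vehicle library 1 was the lowest of the 3 for 10 of the 10 genes, where it was the lowest for 43.0% of all genes tested, and vehicle library 3 was the highest for 9, against 39.9%. The adipocyte markers had a mean log2 CPM of 7.08, 7.96 and 8.56 in vehicle libraries 1, 2 and 3, the same order. Among the treated libraries, library 1 was the lowest for 9 of the 10 genes, against 46.5% of all genes tested, and the adipocyte markers stood at 9.40, 9.67 and 9.95.

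Since the adipocyte markers differed between the groups too, each gene was set against the mean log2 CPM of the 12 markers in its own library. For Pck1, Gpd1, Agpat2, Dgat2, Lpin1 and Dgat1 the treated libraries remained above the vehicle libraries on this scale. In plain CPM that was the case for 24.5% of all genes tested, and the share on this scale was not computed. Pck1 stood 1.42 ± 0.40 log2 units below the markers in vehicle skin and 2.77 ± 0.39 above them in treated skin (SD, n = 3, two-sided exact permutation p = 0.1, the smallest that 3 against 3 allow). Gpd1 went from -0.39 ± 0.07 to 2.27 ± 0.22 and Agpat2 from -1.63 ± 0.15 to 0.14 ± 0.14 (exact permutation p = 0.1 for each, n = 3). The differences were 1.09 for Dgat2, 0.92 for Lpin1 and 0.73 for Dgat1. Gpam, Agpat3, Gk and Mogat1 overlapped between the groups, with differences of 0.21, 0.68, 1.83 and 0.17. Gk was at -3.92 in rebamipide library 1, inside the vehicle range of -3.996 to -3.75, and at -0.60 and -1.74 in the other treated libraries. With Adipoq and Plin1 alone as the reference, Pck1, Gpd1 and Agpat2 still did not overlap (differences of 3.54, 2.00 and 1.12), whereas Dgat2, Lpin1 and Dgat1 did (0.44, 0.27 and 0.07) and Gpam turned to -0.45. Of the 12 markers, 4 were not called higher. Their log2 fold changes were 2.02 for Lpl, which did not overlap between the groups, 0.34 for Cfd, -0.23 for Retn and -0.53 for Lep, and markers with low or negative values lower the reference in treated skin and so raise the differences given above.

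**Figure D3:**
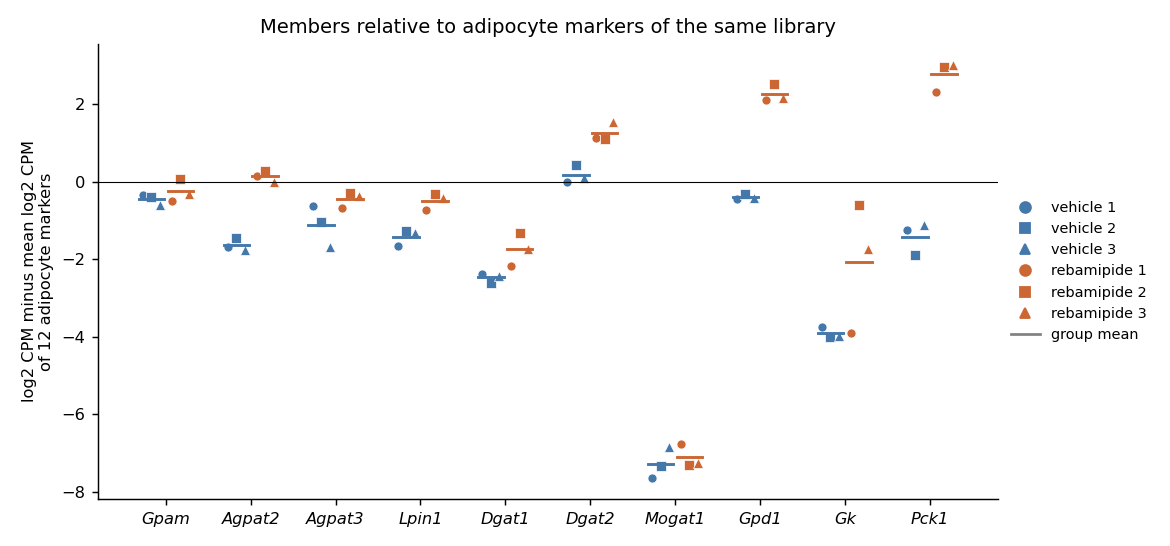
Log2 CPM of each of the 10 genes minus the mean log2 CPM of 12 adipocyte markers in the same library, with a symbol per library, vehicle in blue and rebamipide in orange, and a bar at each group mean. Pck1 moves from a mean of -1.42 to 2.77 and Gpd1 from -0.39 to 2.27, while the symbols of Gpam, Agpat3, Mogat1 and Gk overlap between the groups.

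Within families of enzymes, the shares of several isoforms did not overlap between the groups, while those of Gpam, Agpat3, Dgat1 and Dgat2 did. The shares were not tested. FPKM are counts scaled by gene length and library total, and shares of the summed FPKM of a family within a library do not depend on scaling between libraries. Lpin1 made up 15.6%, 40.5% and 71.8% of the lipin transcripts in the vehicle libraries and 91.1%, 94.3% and 95.8% in the rebamipide libraries. Lpin3, the lipin of epithelia such as gut, made up 77.0%, 53.2% and 21.3% in vehicle skin and at most 5.98% in treated skin. Agpat2 took 37.5% to 52.4% of the AGPAT transcripts in vehicle skin and 75.1% to 78.7% in treated skin, and Agpat1, Agpat4 and Agpat5 each took less in every treated library than in any vehicle library. A smaller share need not mean a lower level, since Agpat1 was itself higher in treated skin, by 1.86 on the log2 scale. In the GPAT family Gpam took 52.4% to 68.8% in vehicle skin and 47.3% to 53.3% in treated skin, and Gpat4, the enzyme of the endoplasmic reticulum, took 20.1% to 35.3% and 41.3% to 47.4%. Gpat3, which is also found there, took 11.1% to 17.9% in vehicle skin and 3.44% to 5.37% in treated skin, although its log2 fold change was 0.72 and did not pass. Dgat2 held 83.7% to 89.0% of the DGAT transcripts in vehicle skin and 84.1% to 90.8% in treated skin, with overlap.

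**Figure D4:**
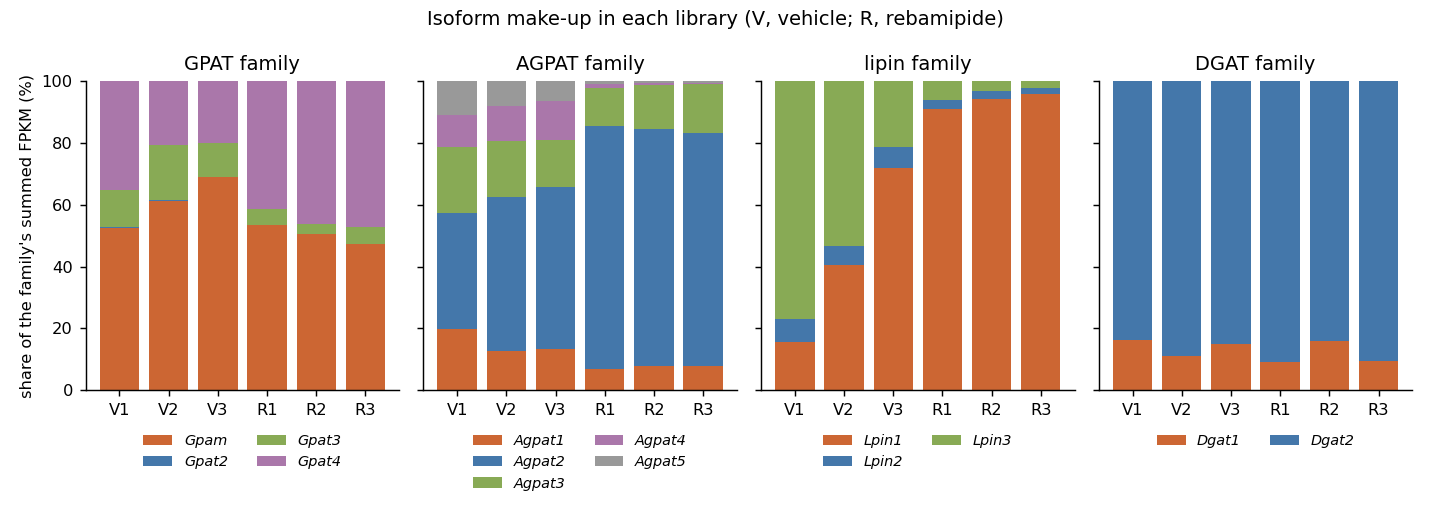
Stacked bars of the share of each gene in the summed FPKM of its enzyme family, for vehicle (V1 to V3) and rebamipide (R1 to R3) libraries. Lpin1 fills 91.1% to 95.8% of the lipin bar in treated skin against 15.6% to 71.8% in vehicle skin, and Agpat2 fills 75.1% to 78.7% of the AGPAT bar, while the DGAT bars overlap between the groups.

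Ratios of FPKM within a library were compared for 8 pairs of genes, and 4 did not overlap between the groups. For single genes in CPM, 24.5% of all genes tested lay wholly above the vehicle libraries and 24.0% wholly below. The share over all pairs of genes was not computed. Lpin1 to Lpin2 went from 2.104, 6.45 and 10.3 to 30.8, 38.8 and 50.5, and Pck1 to Pck2, which encodes the mitochondrial form, from 13.7, 11.3 and 26.8 to 362.2, 368.6 and 472.8. Agpat2 to Agpat3 went from 1.76, 2.75 and 3.50 to 6.42, 5.46 and 4.67. Gpam to Gpat4 was the pair that went down, from 1.49, 2.96 and 3.43 to 1.29, 1.09 and 0.999. For each of these 4 pairs p was 0.1 in a two-sided exact permutation test, the lowest it can reach, and 0.2 after adjustment over the 8 pairs. Dgat1 to Dgat2 was 0.195, 0.123 and 0.175 in vehicle skin and 0.101, 0.189 and 0.104 in treated skin (exact permutation p = 0.3). Gpd1 to Gpd2, the mitochondrial dehydrogenase that reverses the reaction of Gpd1, was 8.003, 11.2 and 8.08 against 10.2, 7.33 and 7.93 (exact permutation p = 0.5). Gk to Gpd1 and Gk to Aqp7 overlapped as well, and both were lowest in rebamipide library 1, at 0.00588 and 0.0835. With rebamipide library 2 left out, 7 of the 8 pairs did not overlap, a count that could only stay or rise with fewer libraries.

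Other genes of glycerol and glycerol 3-phosphate metabolism were compared from a list of 15, of which 14 could be tested and Gk2 had 0 counts in every library. Of the 14, 9 were higher and 1 was lower by edgeR, with a median log2 fold change of 1.14, beside the 14.1% called higher and the median of -0.17 over all genes tested. Aqp7, the glycerol channel of adipocytes, was at 8.35, 13.4 and 18.3 CPM in vehicle skin and at 195.7, 402.2 and 473.3 CPM in treated skin, without overlap, and it rose by 4.74 on the log2 scale (SE 0.50, adjusted p = 0.00939, edgeR). Gpd2 was at 27.7, 39.7 and 77.0 CPM and at 630.3, 1410 and 1248 CPM, and its log2 fold change was 4.51 (SE 0.56). Mdh1, a malate dehydrogenase of the cytosol, and Gpd1l, a relative of Gpd1, were higher by 1.86 and 1.18 on the log2 scale. Gk5, a glycerol kinase relative known from sebaceous glands, was the gene called lower, from 24.0 ± 6.8 to 11.3 ± 1.7 CPM (SD, n = 3, log2 fold change -1.09, adjusted p = 0.0475, edgeR). Aqp3, the glycerol channel of keratinocytes, was at 118.7, 62.7 and 108.1 CPM in vehicle skin and at 40.0, 21.8 and 0.0763 CPM in treated skin and did not pass (adjusted p = 0.283, edgeR). Rebamipide library 3 was its lowest, as for the basal keratinocyte markers, whose part in this was not tested. Aqp9 did not pass either (log2 fold change -2.14), nor did Got1 (0.00 ± 0.68, SE) and Tpi1 (0.47), which with Mdh1 was the most abundant of the list per length. The count of 9 was 4 with scaling by total counts alone, 4 without rebamipide library 3, 4 without vehicle library 1 and 0 without vehicle library 2 or rebamipide library 2 (edgeR), while DESeq2 called 8 or 9 without any 1 library.

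A list of 17 other acyltransferases, phosphatases and CDP-diacylglycerol synthases gave fewer calls. Of its 16 tested genes 3 were higher and 2 were lower by edgeR, with a median log2 fold change of -0.11, and Gpat2 was too low to test. The share called higher, 18.8%, was near the 14.1% over all genes tested. Gpat4 was at 72.8, 64.2 and 72.2 CPM in vehicle skin and at 372.9, 791.0 and 805.9 CPM in treated skin (log2 fold change 3.23, SE 0.37, adjusted p = 0.00939, edgeR). Its vehicle libraries hardly varied, in contrast to those of Gpam. Agpat1 rose by 1.86 and Cds2, which diverts phosphatidate to phospholipids, by 0.98 on the log2 scale. Lpin3 was lower, at 79.2, 49.99 and 16.5 CPM in the vehicle libraries and 9.91, 8.50 and 6.56 CPM in the rebamipide libraries (log2 fold change -2.54, adjusted p = 0.0302, edgeR), and Cds1 fell by 0.84. Mogat2 (1.95), Agpat5 (-0.64), Plpp2 (-0.81) and Plpp3 (-0.24) did not pass. Plpp3 was the most abundant of the list per length in vehicle skin, at a mean of 81.0 FPKM, and was below Gpat4 in treated skin, at 45.4 against 77.1 FPKM. Of the lipid droplet assembly genes, Fitm2 rose from 91.9 ± 37.7 to 424.5 ± 119 CPM and Bscl2, which encodes seipin, from 62.7 ± 18.9 to 211.5 ± 48.9 CPM (SD, n = 3, adjusted p = 0.0178 and 0.0164, edgeR). Fitm1, the muscle form, was at 2.76, 9.93 and 13.3 CPM in vehicle skin and at 18.6, 3.04 and 0.191 CPM in treated skin and did not pass. Its libraries had the same order as the summed fast muscle markers within each group.

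**Figure D5:**
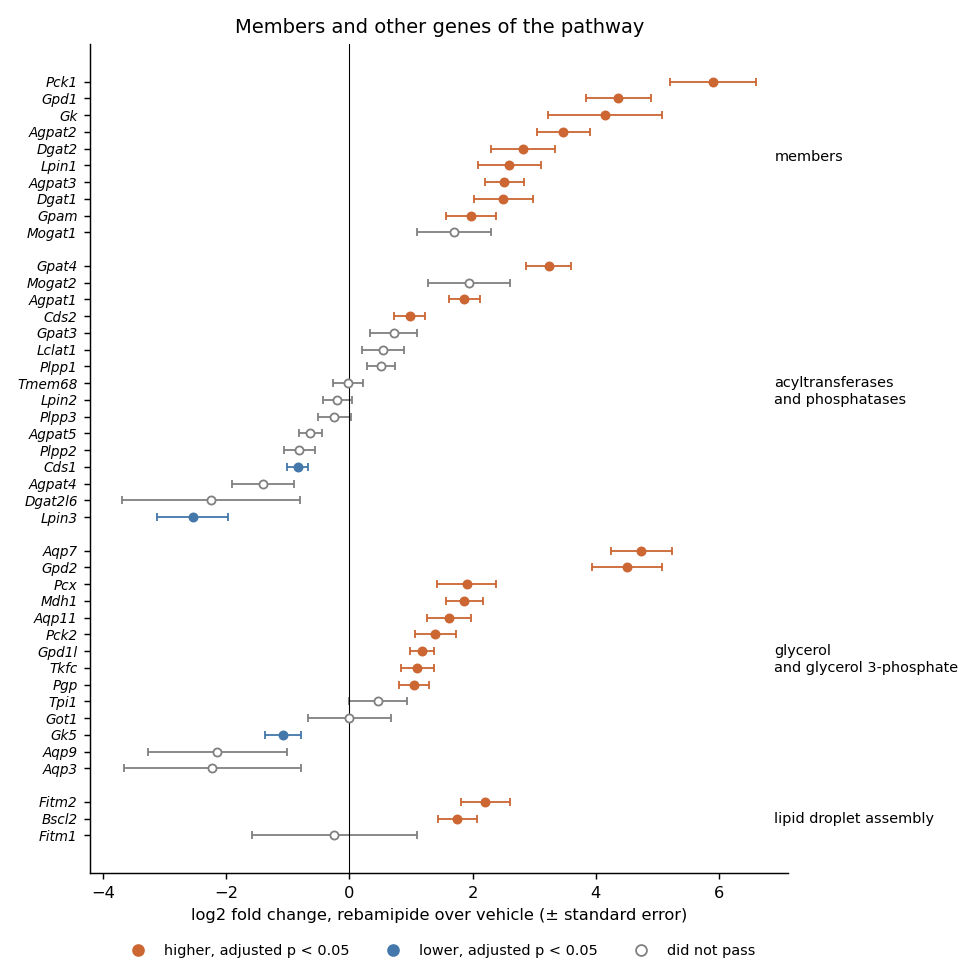
Log2 fold change of rebamipide over vehicle with its standard error for the 10 genes and for the tested genes of the 3 pathway lists, filled orange where higher and blue where lower at an adjusted p-value under 0.05, and open where the test was not passed. The 10 genes lie between 1.70 and 5.90, and the other acyltransferases and phosphatases between -2.54 and 3.23.

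Per length, the order of the 10 genes differed between the groups. In vehicle skin the mean FPKM ran from Dgat2 (116 ± 53.2, SD, n = 3) through Gpd1 (80.7), Agpat2 (47.1), Pck1 (35.5), Gpam (33.5), Dgat1 (18.4), Agpat3 (17.2) and Lpin1 (12.2) to Gk (2.62) and Mogat1 (1.43). Of the neighbours in this order, Lpin1 and Gk alone had ranges that did not overlap. In treated skin Pck1 stood at the top with 1358 ± 431 FPKM, followed by Gpd1 (1077), Dgat2 (527.2), Agpat2 (340.4), Gpam (84.7), Dgat1 (66.3), Agpat3 (63.0), Lpin1 (47.5), Gk (28.7) and Mogat1 (3.09). There the ranges were apart between Gpd1 and Dgat2, Dgat2 and Agpat2, Agpat2 and Gpam, and Gk and Mogat1. The FPKM are scaled by total counts and so carry the larger mitochondrial share of the treated libraries.

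The genes with profiles most like Pck1 over the 6 libraries, by the root mean square difference of log2 CPM after centring each gene on its mean, were Cidea (0.308), Igsf21 (0.327) and Npffr1 (0.400) among 13368 genes. For Mogat1 they were A530016L24Rik (0.174), Apol6 (0.177) and Sod3 (0.199), none of which passed the test either (adjusted p = 0.0956, 0.0659 and 0.0666, edgeR). These genes were found by their values and are a description.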

How the data were processed

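Counts and FPKM came from 1 table of the series, whose 12 value columns carry the names of the 6 libraries. The counts are as deposited, whole reads per gene without normalization, and the FPKM deposited by the authors follow from counts, gene length and total counts. The submitters' processing notes name fastp 0.22.0, HISAT2 2.1.0, HTSeq 0.9.1 and build GRCm39, without their settings; strand use is not given in the sources used here, so overlapping genes on opposite strands may share reads. The study's methods name DESeq2.

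The comparison used edgeR 4.0.16 under R 4.3.3 (TMM, filterByExpr, quasi-likelihood test, Benjamini-Hochberg adjustment over 14875 genes). Standard errors are those implied by the F statistic. Alternatives used DESeq2 1.42.0, limma 3.58.1, other scalings and filters, a replicate block, log2(FPKM + 1), and each library left out in turn. DESeq2 and limma-voom without each library were added after seeing the data. Ratios and marker offsets were compared with exact permutation tests in scipy 1.17.1, and log2 CPM used a prior count of 0.5. The edgeR test recovered 93.5% of 200 genes changed 4-fold in simulated counts of 14347 genes, with 12 false calls. The simulation gave all genes the same dispersion and raised as many genes as it lowered. It did not copy the replicate spread or the mitochondrial shares of these libraries, so its rates do not carry over to them.

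Replicates differed by far more than sampling noise (chi-square over its degrees of freedom, 79.1 to 713.6). Each library is labelled as a separate replicate, and the study describes 3 mice per group. A count of 0 allows up to 3 counts, for counting error only. The 10 genes and the lists were chosen with earlier results of these data known. Of each pathway list the 4 genes with the smallest p-values in each direction and the 2 with the highest FPKM are named. Ldaf1, of the lipid droplet assembly list, was not analysed here.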

Additional observations from a re-analysis of the deposited data

How the results depend on the processing

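All 10 genes had positive log2 fold changes in 15 other analyses and 12 more added after seeing the data. The number called higher was 9 or 10 in every alternative that kept all libraries, the replicate block (9) included. With a library left out, edgeR, DESeq2 and limma-voom called 0 to 10. The smallest adjusted p-values among the 10 genes were 0.0747 without vehicle library 2 and 0.0573 without rebamipide library 2 (edgeR). Same-numbered libraries had correlations of 0.0105, -0.0409 and 0.0222 of their deviations from the group means. Differently numbered ones ran from -0.315 (vehicle 2 with rebamipide 3) to 0.390 (vehicle 2 with rebamipide 1). With 3 libraries per group these values cannot decide whether replicate numbers pair mice.

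Scaling by total counts alone moved the median log2 fold change of all genes from -0.17 to -0.78 and that of the 10 genes from 2.71 to 2.07, so their distance from it was 2.88 and 2.85. It called 1258 genes higher and 3752 lower, against 2093 and 968, and 4 of the glycerol list. Genes called lower were 2572 with DESeq2, 1512 with at least 10 counts in every library and 4809 on log2(FPKM + 1), and the higher share of all calls was 68.4% with TMM, 25.1% with total counts and 22.6% on log2(FPKM + 1). Without 1 library edgeR called 0 to 2810 genes higher and 0 to 1971 lower, 0 to 3 of the acylation list and 0 to 9 of the glycerol list. DESeq2 called 3628 higher without rebamipide replicate 1, and 4251, 1489 and 1875 lower without rebamipide replicates 1, 2 and 3 and 2037, 2114 and 2430 lower without vehicle replicates 1, 2 and 3. Limma-voom called 256, 910 and 210 higher and 14, 268 and 7 lower without rebamipide replicate 2, rebamipide replicate 3 and vehicle replicate 2. It called 4 of the 10 genes, 1 of the acylation list and 2 of the glycerol list without vehicle or rebamipide replicate 2, and 3 of the glycerol list without rebamipide replicate 3. Without 1 library, 4 to 7 ratio pairs and 6 to 9 marker offsets had no overlap, against 4 and 6. These counts can only stay or rise when a library is left out, so they do not test the result. With Adipoq and Plin1 alone as the reference, 3 offsets had no overlap.

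Some differences changed sign. With 1 library left out, the log2 ratio of Gpd1 to Gpd2 ran from -0.24 to 0.062 (without vehicle replicate 2), that of Gk to Gpd1, -0.83 with all libraries, from -1.44 to 0.011 (without rebamipide replicate 1), and the offset of Mogat1 from -0.023 (without vehicle replicate 1; -0.0055 without rebamipide replicate 1) to 0.39. The offsets of Gpam and Mogat1 from Adipoq and Plin1 were -0.45 and -0.49. The cause was not tested.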

Other observations

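The deposited annotation places 8 of the 10 genes in the KEGG pathway glycerolipid metabolism, Gk and Pck1 in PPAR signaling pathway, and 5 in the GO term triglyceride biosynthetic process. These sets were taken from the table after it was seen and are described by counts, beside the 14.1% of all genes tested that were higher and the 6.51% that were lower. Without the 10 genes, 10 of 43 tested glycerolipid metabolism genes were higher and 3 were lower by edgeR, with a median log2 fold change of 0.52. Of the 11 remaining tested genes of triglyceride biosynthetic process, 3 were higher and 2 were lower, with a median of 0.72. The 66 remaining tested genes of PPAR signaling pathway held 34 that were higher and 3 that were lower, with a median of 1.39. Gpd1 and Pck1 also carry the GO term gluconeogenesis, of whose 36 other tested genes 13 were higher and 0 were lower.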
